A study of Mus musculus with 24 samples.

Results

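The 7 genes described here, Dbp, Tef, Hlf, Nfil3, Nr1d1, Nr1d2 and Ciart, are transcribed under direct control of the circadian clock. They were taken from the deposited count table by their gene symbols, and all 7 of the 18647 genes listed that carry these symbols were found and passed the filter on low counts (18153 genes). The set was chosen by measured values, because these genes differed between libraries taken 6 to 72 h after pilocarpine and untreated libraries of 12, 36 and 72 h, so the values of status epilepticus (SE) against control (Ctr) are given as a description, without a test. RNA came from the microdissected CA1 region of the hippocampus of C57Bl/6N mice at least 60 days old and 20 g in weight. All mice, Ctr included, first received scopolamine methyl nitrate (1 mg/kg), a muscarinic blocker that hardly enters the brain. Pilocarpine (335 mg/kg), a muscarinic agonist, followed 20 min later in the SE groups, and saline in the Ctr groups. Diazepam (4 mg/kg) was given 40 min after the onset of SE, and by the study's methods the handling of Ctr mice was otherwise the same. Only mice that developed SE entered the SE groups. There were 5 SE groups (6, 12, 24, 36 and 72 h) and 3 Ctr groups (12, 36 and 72 h) with 3 libraries each, 24 in all. The labels give no litter or batch, so the p values given here measure the spread between these libraries. Label numbers fell in 3 ranges that split SE and Ctr unevenly. Numbers 92 to 104 held 8 SE and 0 Ctr libraries, 109 to 122 held 6 SE and 5 Ctr, and 162 to 169 held 1 SE and 4 Ctr. All of Ctr 72 h was in the last range, and what the ranges stand for is not given.

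The mammalian clock is a feedback loop. The activators BMAL1 and CLOCK (or NPAS2) bind E-boxes and switch on the Period and Cryptochrome genes, whose proteins then block BMAL1 and CLOCK. E-boxes also drive most of the genes described here. DBP, TEF and HLF are the PAR bZIP factors, leucine zipper proteins that activate genes through D-boxes, and NFIL3 (E4BP4) is a repressor that competes for the D-box. REV-ERBα (Nr1d1) and REV-ERBβ (Nr1d2) are nuclear receptors that recruit the NCoR-HDAC3 corepressor to ROR elements, including those of Bmal1. CIART (CHRONO) binds BMAL1 and represses it. In the mouse brain, combined loss of Dbp, Tef and Hlf is known to cause seizures, with low pyridoxal phosphate, the active form of vitamin B6, through its kinase gene Pdxk.

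The 250 bases before the annotated start of the canonical transcript (GENCODE, GRCm39) were searched on both strands for 4 motifs. These were the E-box CACGTG, the ROR element core TAGGTCA or TGGGTCA, the D-box TTATGTAA or TTACGTAA and the cAMP response element TGACGTCA. Only 3 of the 7 promoters held a match in this window, and they are shown with the matches in capitals, since they are the member promoters in which clock motifs can be read directly.
Ciart, chr3:95789557-95789806, minus strand: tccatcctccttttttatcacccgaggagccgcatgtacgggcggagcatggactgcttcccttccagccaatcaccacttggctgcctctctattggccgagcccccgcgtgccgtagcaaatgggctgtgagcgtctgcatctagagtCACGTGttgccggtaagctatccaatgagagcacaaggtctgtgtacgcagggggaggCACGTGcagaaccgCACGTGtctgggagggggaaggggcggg
Tef, chr15:81695365-81695614, plus strand: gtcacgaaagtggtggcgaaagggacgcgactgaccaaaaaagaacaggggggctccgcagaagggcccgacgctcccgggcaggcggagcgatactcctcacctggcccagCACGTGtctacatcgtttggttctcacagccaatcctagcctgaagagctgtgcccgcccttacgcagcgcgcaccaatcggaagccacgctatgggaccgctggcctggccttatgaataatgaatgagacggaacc
Dbp, chr7:45354262-45354511, plus strand: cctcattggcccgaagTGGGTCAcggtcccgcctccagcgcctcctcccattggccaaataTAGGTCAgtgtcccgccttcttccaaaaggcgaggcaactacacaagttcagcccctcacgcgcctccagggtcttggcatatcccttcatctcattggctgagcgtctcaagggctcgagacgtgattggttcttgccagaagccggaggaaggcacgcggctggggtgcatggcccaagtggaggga
Ciart held 3 E-boxes, whose first bases lay at -100, -42 and -28 (the base before the start being -1). Tef held 1 E-box at -138. Dbp held both forms of the ROR element core, TGGGTCA at -234 and TAGGTCA at -189. No match overlapped one of another motif. Of 21757 promoters of protein-coding genes, 6.26% held an E-box in the same 250 bases, 5.26% a ROR element core, 0.933% a D-box and 1.7% a cAMP response element. In a wider window of 1000 bases to each side of the start, 5 members (Tef, Nfil3, Nr1d1, Nr1d2 and Ciart) held an E-box, against 27.9% of all promoters, and 3 held a D-box (Nfil3, Nr1d2 and Ciart), against 7.04%. In the same window 3 held a ROR element core (Dbp, Nfil3 and Ciart), against 35.2%, and 1 a cAMP response element (Hlf), against 4.12%. A match of letters is a description and not a measured binding site.

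In Ctr libraries, levels were compared per length, as normalised CPM (read counts scaled to library size) per kb of annotated exon. Tef was the most abundant of the 7, with a median of 57.3 CPM per kb over the 9 Ctr libraries (39.5 to 63.6). Nr1d1 (29.1, from 21.8 to 37.2) and Hlf (25.996, from 17.7 to 39.7) followed and overlapped each other. Nr1d2 (13.5, from 12.3 to 15.3) and Dbp (12.9, from 7.72 to 17.1) overlapped as well. Ciart was at 8.83 (0.392 to 9.42) and overlapped Dbp, and Nfil3 was lowest at 1.80 (1.22 to 4.51). The repressor Nfil3 thus stood below each of the 3 D-box activators in every Ctr library.

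Library totals ranged from 9328095 to 30133731 counts outside Ctr 72 h and from 2663936 to 11680209 in Ctr 72 h. One library, Ctr 72 h replicate 2 (5793721 counts), stood apart, since its 8 sensory ganglion markers summed to 1875 CPM, against 29.7 and 95.2 in the other Ctr 72 h libraries and up to 1078 in SE libraries. It held the lowest Ctr level of Dbp, Tef, Hlf, Nr1d1, Nr1d2 and Ciart and the highest of Nfil3, so fitted values of the members at 72 h are also given without it. None of 8 neuronal or 6 CA1 pyramidal markers was at 0 in any group, which is a weak check of the dissection. Summed over 5 dentate granule cell markers, levels were uneven between libraries, at 8.53 to 113 CPM in Ctr and 23.5 to 254 in SE. Neuronal markers summed to 9463 to 16734 CPM in Ctr and 5752 to 11242 in SE libraries, CA1 markers to 735 to 1463 and 304 to 886, and 6 astrocyte markers to 3536 to 4879 and 5132 to 13319. The summed microglial markers were 222 to 305 CPM in Ctr, 119 to 163 at 6 and 12 h after SE and 669 to 1004 at 72 h. The neuronal, CA1, astrocyte and microglial sums shifted after SE too. The median CA1 sum went from 818 CPM in SE 6 h to 749 in SE 12 h and 850 in SE 24 h. It was 710 CPM in SE 36 h and 635 in SE 72 h. Mean levels of Tef, Hlf, Nr1d1 and Ciart likewise fell, rose and fell again up to SE 36 h. Their means then rose to SE 72 h, where the CA1 sum was lowest, whereas Dbp was lowest in SE 12 h. The part of these sums in the values was not tested. In whole tissue, fewer cells of a type and less RNA per cell cannot be told apart.

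**Figure D1:**
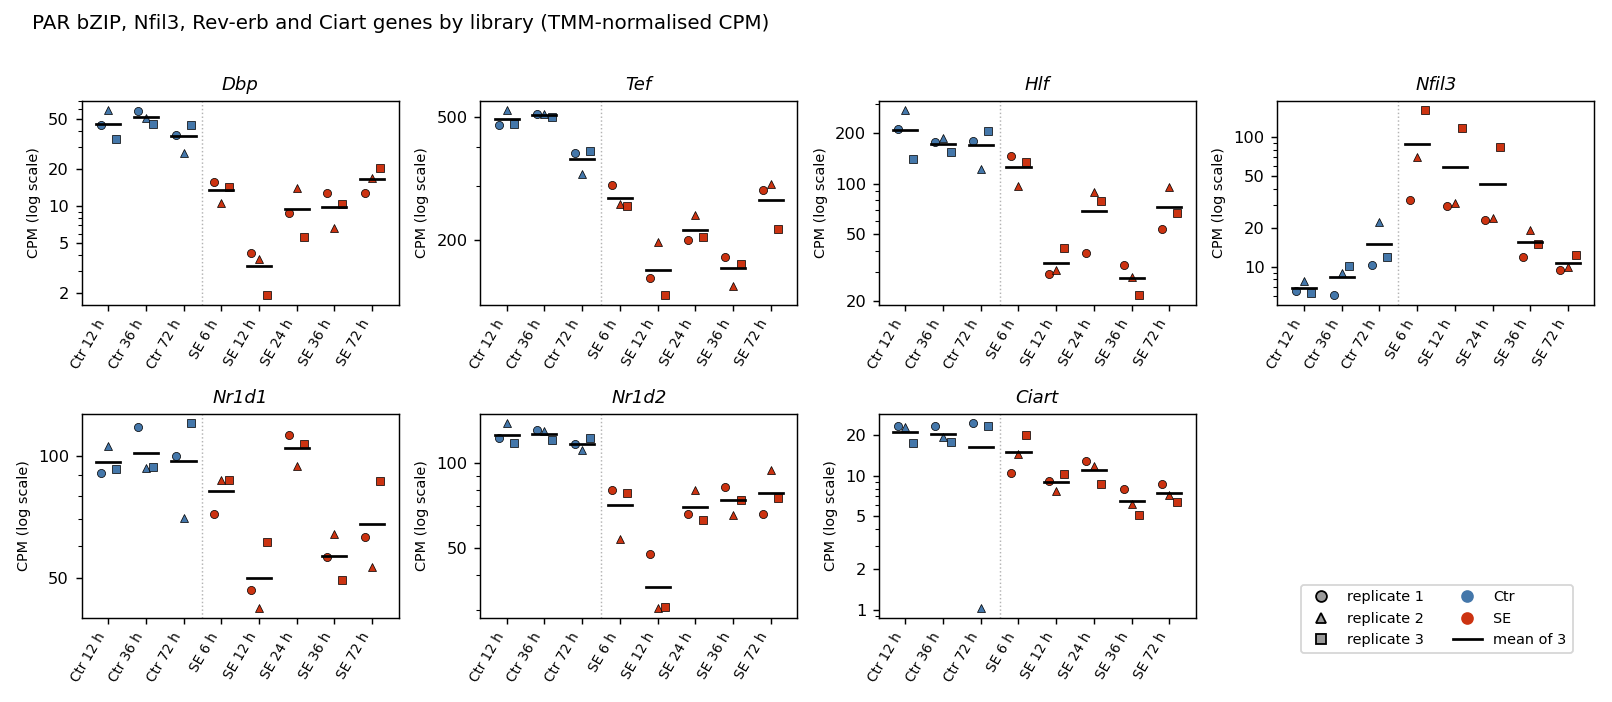
TMM-normalised CPM (log axis) of the 7 genes in each of 24 libraries, by group, with Ctr in blue and SE in red, replicates by symbol and the mean of 3 as a line. Dbp, Tef and Nr1d2 are below every Ctr library in all 15 SE libraries, Nfil3 is high from 6 to 24 h, and Ctr 72 h replicate 2 is far below the other controls for Ciart.

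Dbp, the PAR bZIP gene known for a deep daily swing in many tissues, had the lowest fitted value of the 7 at 6, 12 and 24 h after SE. Ctr libraries held 44.8, 59.2 and 34.3 CPM at 12 h, 58.6, 51.5 and 45.5 at 36 h, and 37.6, 26.8 and 44.6 at 72 h. After SE, Dbp was at 15.7, 10.6 and 14.3 CPM at 6 h, 4.17, 3.75 and 1.91 at 12 h, and 8.81, 14.02 and 5.68 at 24 h. At 36 h, it was at 12.7, 6.62 and 10.4 CPM, and at 72 h at 12.8, 16.7 and 20.3. All 15 SE libraries were below the lowest Ctr library, and the 12 h libraries were the lowest of all. The log2 fold change (Log2FC) against the Ctr group of the same time was -3.76 (s.e. 0.34) at 12 h, -2.38 (s.e. 0.31) at 36 h and -1.11 (s.e. 0.31) at 72 h. The latter was -1.27 without Ctr 72 h replicate 2.

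Tef, the PAR bZIP gene with the highest level here, was reduced in every SE library too, but over a narrower range. It had 472, 526 and 473 CPM in Ctr 12 h, 511, 509 and 500 in Ctr 36 h, and 383, 326 and 387 in Ctr 72 h. SE libraries held 302, 262 and 258 CPM at 6 h, 151, 198 and 133 at 12 h, and 200, 242 and 205 at 24 h. The values were 177, 143 and 168 CPM at 36 h and 291, 303 and 217 at 72 h. Again, all 15 SE libraries lay below the lowest Ctr library, with 12 and 36 h lowest. Log2FC against time-matched Ctr was -1.61 (s.e. 0.14), -1.64 (s.e. 0.14) and -0.43 (s.e. 0.14) at 12, 36 and 72 h, the last being -0.52 without Ctr 72 h replicate 2.

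Hlf, the PAR bZIP partner of both, had 213, 275 and 141 CPM in Ctr 12 h, 179, 187 and 155 in Ctr 36 h, and 180, 122.8 and 205 in Ctr 72 h. At 6 h after SE, it was at 146, 97.3 and 135 CPM, so that this group overlapped the controls. It then stood at 28.9, 30.8 and 41.4 CPM at 12 h, 38.4, 89.1 and 79.0 at 24 h, 32.9, 27.9 and 21.7 at 36 h, and 54.0, 95.8 and 67.4 at 72 h. Hlf was below every Ctr library in 13 of 15 SE libraries, and alternated between low levels at 12 and 36 h and higher ones at 24 and 72 h. Log2FC against time-matched Ctr was -2.64 (s.e. 0.28) at 12 h, -2.67 (s.e. 0.29) at 36 h and -1.21 (s.e. 0.27) at 72 h (-1.41 without Ctr 72 h replicate 2).

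Nfil3, the D-box repressor, was the only one of the 7 with SE groups above every Ctr library. Ctr libraries held 6.53, 7.74 and 6.26 CPM at 12 h, 6.04, 8.92 and 10.2 at 36 h, and 10.3, 22.3 and 12.0 at 72 h. After SE, the values were 33.0, 69.5 and 161 CPM at 6 h, 29.5, 31.0 and 116 at 12 h, and 23.04, 23.6 and 83.5 at 24 h. They were down to 11.9, 19.4 and 14.99 CPM at 36 h and 9.53, 9.92 and 12.4 at 72 h. All 9 SE libraries of 6 to 24 h were above the highest Ctr library, and 1 library in each of these groups, replicate 3, stood well above the other two. The same 3 libraries also held the highest Per1 levels of their groups (344, 252 and 178 CPM). Log2FC was 3.13 (s.e. 0.60) at 12 h and 0.88 (s.e. 0.58) at 36 h, and the 12 h value was 2.15 without SE 12 h replicate 3. At 72 h it was -0.38 (s.e. 0.61), with -0.04 without Ctr 72 h replicate 2 and -1.14 when the range of the label numbers was added as a factor.

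Nr1d1, which encodes the better studied of the REV-ERB repressors, had the smallest Log2FC of the 7 at 12 h. It was at 90.8, 106 and 93.2 CPM in Ctr 12 h, 118, 93.7 and 94.4 in Ctr 36 h, and 100, 70.6 and 121 in Ctr 72 h. After SE, it was at 72.2, 87.5 and 87.3 CPM at 6 h, 46.8, 42.2 and 61.6 at 12 h, and 113, 94.7 and 107 at 24 h. It had 56.5, 64.3 and 49.5 CPM at 36 h and 63.4, 53.5 and 87.0 at 72 h. The 12 and 36 h libraries were below all Ctr libraries, whereas the 24 h libraries lay within the control range. Log2FC was -0.95 (s.e. 0.16), -0.85 (s.e. 0.16) and -0.50 (s.e. 0.16) at 12, 36 and 72 h, and -0.69 at 72 h without Ctr 72 h replicate 2. Exons of Nr1d1 overlap those of Thra, a thyroid hormone receptor gene on the other strand, and counting ignored the strand. Reads on the shared stretch could therefore not be assigned to either gene. Thra ranged from 791 to 1023 CPM over the Ctr libraries and was lower after SE too. Its mean was 630 CPM in SE 12 h (Ctr 12 h: 926), 411 in SE 36 h (Ctr 36 h: 1006) and 424 in SE 72 h (Ctr 72 h: 850). SE 6 h libraries held 510, 938 and 940 CPM. Unlike Nr1d1, Thra was below all Ctr libraries in SE 24 h (497 to 562 CPM). Like Nr1d1, it was lower in every SE 36 h library (366 to 459 CPM) than in SE 24 h. Whether any Thra reads remained in the Nr1d1 values was not tested.

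Nr1d2, the second REV-ERB gene, was lower in all SE groups. It had 122, 138 and 117 CPM in Ctr 12 h, 131, 130 and 121 in Ctr 36 h, and 117, 111 and 122.6 in Ctr 72 h. SE libraries held 80.1, 53.5 and 78.3 CPM at 6 h, 47.3, 30.4 and 30.9 at 12 h, and 65.8, 80.4 and 62.8 at 24 h. They held 82.2, 65.5 and 73.8 CPM at 36 h and 65.6, 94.1 and 74.8 at 72 h. Controls were tightly grouped, all 15 SE libraries were below them, and 12 h was the low point. Log2FC was -1.80 (s.e. 0.18) at 12 h, -0.78 (s.e. 0.17) at 36 h and -0.58 (s.e. 0.18) at 72 h. The 72 h value was -0.61 without Ctr 72 h replicate 2 and -0.34 with the label range as a factor.

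Ciart, the BMAL1 repressor gene with 3 E-boxes shown above, had 23.3, 23.02 and 17.6 CPM in Ctr 12 h, 23.4, 19.5 and 17.8 in Ctr 36 h, and 24.6, 1.02 and 23.2 in Ctr 72 h. The low value, in replicate 2, rested on 6 counts. After SE, Ciart was at 10.4, 14.4 and 20.0 CPM at 6 h, 9.09, 7.62 and 10.2 at 12 h, and 12.7, 11.8 and 8.62 at 24 h. It was at 8.003, 6.15 and 5.13 CPM at 36 h and 8.64, 7.15 and 6.33 at 72 h. From 12 h on, every SE library was below the 8 other Ctr libraries. Log2FC was -1.22 (s.e. 0.28) at 12 h and -1.68 (s.e. 0.29) at 36 h. At 72 h it was -0.36 (s.e. 0.33) with all libraries and -1.70 (s.e. 0.26) without Ctr 72 h replicate 2. It turned to 0.41 without Ctr 72 h replicate 1 and to 0.16 without replicate 3, so its direction at 72 h depended on which control libraries were kept.

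At 12 h and at 36 h, no member overlapped between the SE and Ctr libraries of that time, 6 being lower and Nfil3 higher. Of all 18153 genes, 23.2% had every SE library below every Ctr library and 24.5% had every SE library above at 12 h, and 26.2% and 25.8% at 36 h. At 72 h, Dbp, Tef, Hlf and Nr1d2 were below Ctr without overlap (13.4% of all genes), and without Ctr 72 h replicate 2 this held for 6 members, beside 23.2% of all genes in the same split of 3 against 2 libraries. The median Log2FC of the 7 was -1.61, -1.64 and -0.50 at 12, 36 and 72 h, beside 0.01, 0.00 and 0.10 over all genes. Since the members were chosen for this difference, these counts are no evidence of their own. SE 6 h and SE 24 h had no control of the same time, and against the mean of the 3 Ctr groups Dbp was at -1.69 (s.e. 0.27) and -2.19 (s.e. 0.28), and Nfil3 at 3.24 (s.e. 0.41) and 2.22 (s.e. 0.42). Without replicate 3 of the SE group, the values of Nfil3 were 2.46 and 1.33.

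**Figure D2:**
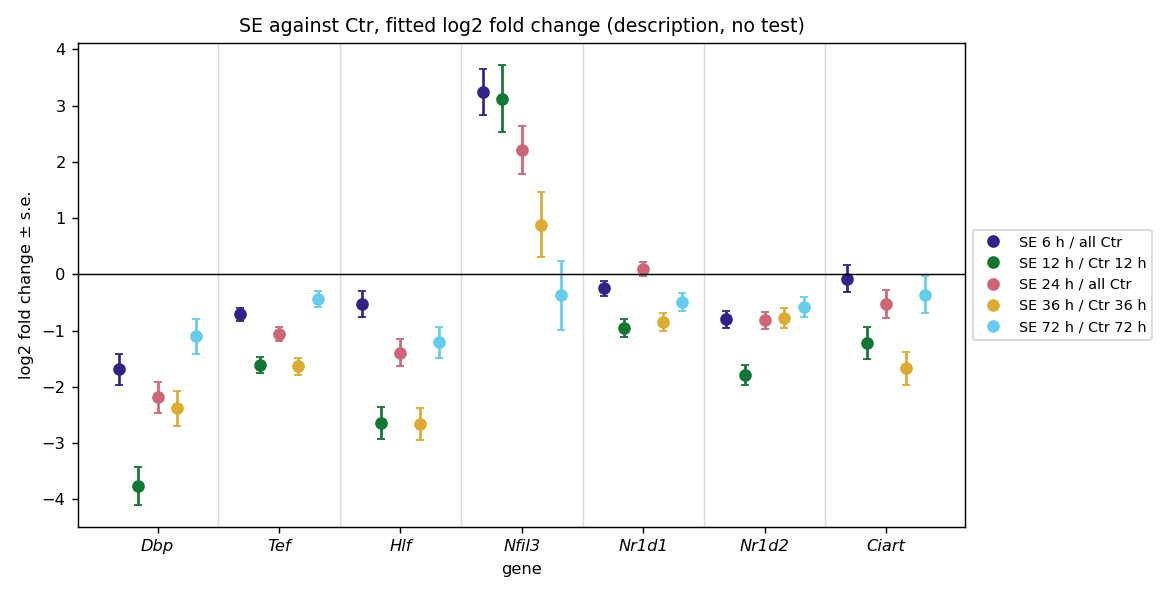
Fitted log2 fold change (points) and s.e. (bars) of each gene in SE against Ctr, with the 12, 36 and 72 h groups against their own Ctr and the 6 and 24 h groups against the mean of all Ctr groups. Nfil3 is above 0 to 36 h, Dbp is lowest at 12 h (-3.76), and Nr1d1 is at 0.10 at 24 h.

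Control libraries alone show how these genes differed among the Ctr groups, but not how far they move over a day. Ctr 12 h and Ctr 36 h would share a clock hour if all mice were treated at the same hour, which is not given. Ctr 72 h is not a whole number of days from either, but its libraries also had the lowest depth and label numbers of only 1 range. Between Ctr 12 h and Ctr 36 h, which are 1 day apart, none of the 7 was called by edgeR's quasi-likelihood test, nor was any gene of the table (0%), although 653 genes had an unadjusted p under 0.05. DESeq2 and limma-voom called no member either. The differences ran from -0.27 for Hlf (± 2 s.e. from -0.80 to 0.26) to 0.29 for Nfil3 (-0.90 to 1.48), and that of Nr1d2 was 0.01 (-0.33 to 0.36). In Ctr 72 h against the mean of Ctr 12 h and Ctr 36 h, 3.07% of genes were called, and of the members Ciart, with a Log2FC of -1.09 (edgeR's quasi-likelihood test, Benjamini-Hochberg adjusted p = 0.0327). This call rested on Ctr 72 h replicate 2, since without it the value was 0.21 and no member was called. Tef was lower in every Ctr 72 h library than in the other controls (5.86% of all genes, Log2FC -0.45, s.e. 0.12, adjusted p = 0.0405 by the same edgeR test, and -0.37 without Ctr 72 h replicate 2), short of the 0.66 asked of a call between control groups.

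Time points after SE were then compared with each other. This contrast was not the one used to choose the genes, but it shares the SE libraries with it, so its calls are not independent of that choice. The study had also already named Hlf as differing between SE times. A call here asked for an adjusted p no higher than 0.05 and for a Log2FC of 1 or more in size. From 6 to 12 h after SE, all 7 fitted values were negative, and 6 genes had every 12 h library below every 6 h library (10.6% of all genes), Nfil3 being the exception. Dbp fell by 2.01 on the log2 scale (s.e. 0.33, edgeR's quasi-likelihood test, Benjamini-Hochberg adjusted p = 0.00306), a 4.02-fold decrease. Hlf fell by 1.92 (s.e. 0.28, adjusted p = 0.0018, the same edgeR test). These 2 calls compare with 1.36% of all genes. Tef (-0.77), Nr1d1 (-0.72) and Nr1d2 (-0.97) had adjusted p values of 0.00581, 0.0143 and 0.00556 by the same edgeR test but stayed short of the fold. At a threshold of 0.66, chosen after the data were seen, 5 members were called (2.54% of all genes). That threshold also gave 2 members from 24 to 36 h (0.727%), Hlf and Nr1d1, and 2 from 36 to 72 h (6.86%), Hlf and Tef.

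From 12 to 24 h, 2 activator genes and 1 REV-ERB gene rose. Dbp rose by 1.51 (s.e. 0.33, adjusted p = 0.00828), Nr1d1 by 1.07 (s.e. 0.16, adjusted p = 0.000541) and Hlf by 1.05 (s.e. 0.27, adjusted p = 0.0214, all by edgeR's quasi-likelihood test and Benjamini-Hochberg). These 3 calls compare with 3.22% of all genes. Every 24 h library of Dbp, Tef, Nr1d1 and Nr1d2 was above every 12 h library (12.9% of all genes), whereas Hlf overlapped in 1 library. Nr1d2 was at 0.94 (s.e. 0.18, adjusted p = 0.00331, edgeR) and Nfil3 at -0.47 (s.e. 0.54). Omitting SE 12 h replicate 2 ended the Nr1d1 call (0.97), and omitting SE 24 h replicate 2 ended the Dbp call (1.08). The Hlf call ended without SE 12 h replicate 1 or 2, or without SE 24 h replicate 2 or 3 (0.82 to 1.00).

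From 24 to 36 h, Hlf fell by 1.35 (s.e. 0.28, edgeR, Benjamini-Hochberg adjusted p = 0.0304), the only member called, against 0.523% of all genes. Nr1d1 was at -0.89 (s.e. 0.16, adjusted p = 0.0119, edgeR), with all 36 h libraries below all 24 h libraries, as they also were for Tef, Hlf, Nfil3 and Ciart (9.85% of all genes). Dbp and Nr1d2 overlapped, at 0.04 (± 2 s.e. from -0.58 to 0.67) and 0.08 (-0.27 to 0.43). Omitting SE 24 h replicate 2 or 3, or any of the libraries of SE 36 h, ended the Hlf call. Without Ctr 72 h replicate 2, Nfil3 was called as well. From 36 to 72 h, Hlf rose by 1.40 (s.e. 0.28, edgeR, Benjamini-Hochberg adjusted p = 0.0031), against 4.16% of all genes called. Tef was at 0.73 (s.e. 0.14, adjusted p = 0.00269, edgeR) and Dbp at 0.74 (s.e. 0.31, adjusted p = 0.136, edgeR), both with no overlap of libraries (17.3% of all genes).

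**Figure D3:**
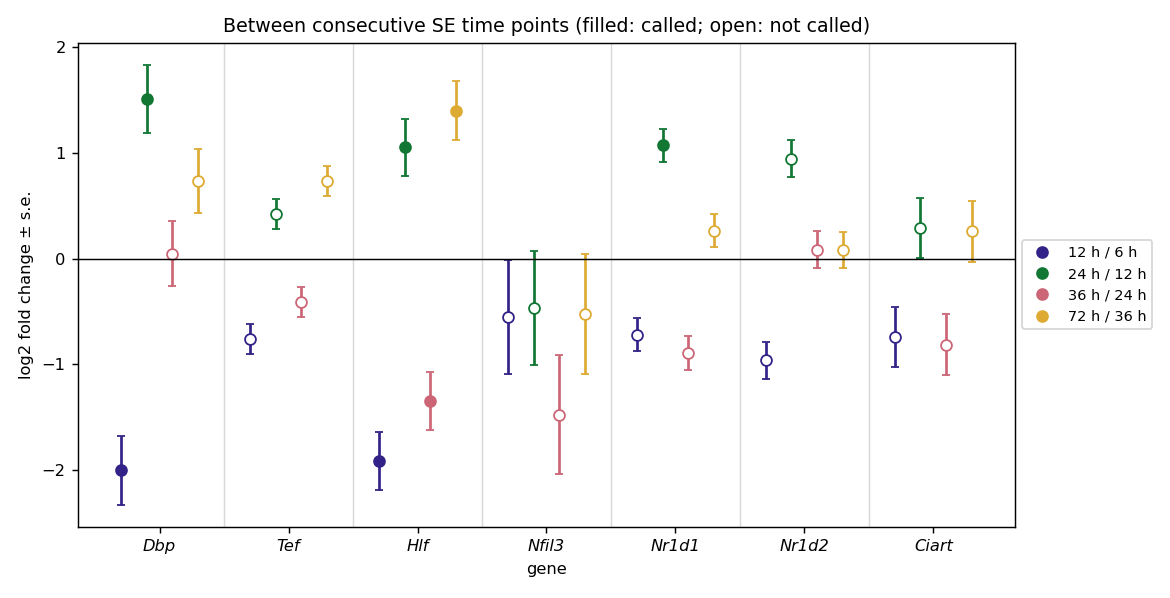
Log2 fold change (points) and s.e. (bars) of each gene between consecutive SE time points, with filled points for calls. Hlf alternates in sign over the 4 steps and is called in each, and Dbp falls to 12 h, rises to 24 h and shows 0.04 from 24 to 36 h.

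Groups a whole number of days apart were set against each other, since they would fall at the same clock hour if all mice were induced at the same hour, which is not given in the sources used here. Time of day and time after SE cannot otherwise be told apart between SE groups. Between SE 12 h and SE 36 h, 6.18% of all genes were called, and 3 members. Dbp rose by 1.56 (s.e. 0.33, adjusted p = 0.00349), Nr1d2 rose by 1.03 (s.e. 0.18, adjusted p = 0.000938) and Nfil3 fell by 1.95 (s.e. 0.57, adjusted p = 0.0237, all by edgeR's quasi-likelihood test and Benjamini-Hochberg). Dbp and Nr1d2 were above in every library (15.2% of all genes) and Nfil3 below (14.6%). Tef was at 0.01 (± 2 s.e. from -0.27 to 0.30), Hlf at -0.30 (-0.85 to 0.26) and Nr1d1 at 0.18 (-0.14 to 0.49). Without SE 12 h replicate 3, Nfil3 was at -0.98 and Nr1d2 at 0.93, and neither was called, which left 1 member. Without SE 36 h replicate 1, Nfil3 and Nr1d2 were not called either, nor was Nr1d2 without SE 12 h replicate 2 (0.91) or Nfil3 without SE 36 h replicate 3 (-1.94). Between SE 24 h and SE 72 h, 10.9% of all genes were called and 1 member, Nfil3, which fell by 2.01 (s.e. 0.57, edgeR, Benjamini-Hochberg adjusted p = 0.0145). Without SE 24 h replicate 3, the library with 83.5 CPM, Nfil3 was at -1.12 and not called, and without SE 72 h replicate 1 it was at -1.93 and not called. Leaving out SE 24 h replicate 2 added Dbp, and made 2 calls. Hlf was at 0.05 (± 2 s.e. from -0.48 to 0.59) and Nr1d1 at -0.63 (adjusted p = 0.00582, edgeR), with every 72 h library below every 24 h library, as for Nfil3 (19% of all genes).

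The core clock loop was examined in a list of 19 tested genes that holds none of the 7. At 12 h, 3 of 19 were called between SE and Ctr (25.3% of all genes), 2 higher and 1 lower, with a list median of 0.04 beside 0.01 over all genes. Bmal1, the activator repressed by REV-ERBs, rose by 0.77 (s.e. 0.18, adjusted p = 0.00271) and the repressor Cry1 by 0.83 (s.e. 0.23, adjusted p = 0.00678, both by edgeR's quasi-likelihood test and Benjamini-Hochberg). Per3 fell by 2.71 (s.e. 0.20, adjusted p = 1e-08, same edgeR test). Clock was at 0.04, Npas2 at -0.41, Per1 at 0.48, Per2 at -0.04 and Cry2 at 0.00, none of them called. With Ctr 12 h replicate 1 left out the count was 5, as it was with SE 12 h replicate 2 left out, and leaving out SE 12 h replicate 3 made it 2. Without that last library, Bmal1 was at 0.62 and Cry1 at 0.53 and neither was called, and Cry1 was also not called without Ctr 12 h replicate 3 (0.64).

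At 36 h, 5 of 19 were called (21.6% of all genes, list median -0.21 beside 0.00). Per1, Per2 and Per3, the Period repressors, fell by 0.91 (s.e. 0.26), 0.95 (s.e. 0.26) and 1.93 (s.e. 0.19), and the activator Npas2 fell by 1.14 (s.e. 0.25). Timeless rose by 1.17 (s.e. 0.24). The adjusted p values ran from 2.58e-07 for Per3 to 0.0105 for Per1 (edgeR, Benjamini-Hochberg). Bmal1 was at 0.01 (s.e. 0.18). At 72 h, 5 of 19 were called (19.5% of all genes, list median -0.22 beside 0.10), Bhlhe41 (0.99), Fbxl21 (1.05) and Timeless (1.03) being higher and Per1 (-0.88) and Bmal2 (-0.68) lower. Fbxl21 had only 35, 13 and 3 counts in Ctr 72 h, and its SE 72 h levels (3.31 to 6.49 CPM) overlapped those of Ctr 12 h (3.25 to 4.92 CPM). Without Ctr 72 h replicate 2, Fbxl21 was at 1.03 and not called, while Bhlhe41 (1.09), Timeless (1.40), Per1 (-0.91) and Bmal2 (-0.71) were. Leaving out Ctr 72 h replicate 1 gave 3 calls, leaving out SE 72 h replicate 2 gave 2, and in both cases Per1 (-0.80 and -0.72) and Bmal2 (-0.60 and -0.64) were not called. Fbxl21 was also not called without SE 72 h replicate 2 (0.78) or Ctr 72 h replicate 3 (0.86), Bhlhe41 without SE 72 h replicate 1 (0.71), and Bmal2 without SE 72 h replicate 3 (-0.61). With the label range as a factor, Bhlhe41 was at 0.44, Timeless at 0.99, Fbxl21 at 1.42 and Bmal2 at -0.62, none of them called. In controls, Per3 fell by 0.90 (s.e. 0.17) from Ctr 12 and 36 h to Ctr 72 h (adjusted p = 0.00717, edgeR), and by 0.86 without Ctr 72 h replicate 2, so that its Log2FC at 72 h of 0.16 was taken against a lower control. Per2 fell by 0.92 in the same contrast and was at -0.49, not called, without Ctr 72 h replicate 2. The difference of the SE effect between times was called for 1 of the 19 genes at 36 against 12 h, 4 at 72 against 12 h and 1 at 72 against 36 h, beside 3.36%, 18.6% and 4.9% of all genes.

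**Figure D4:**
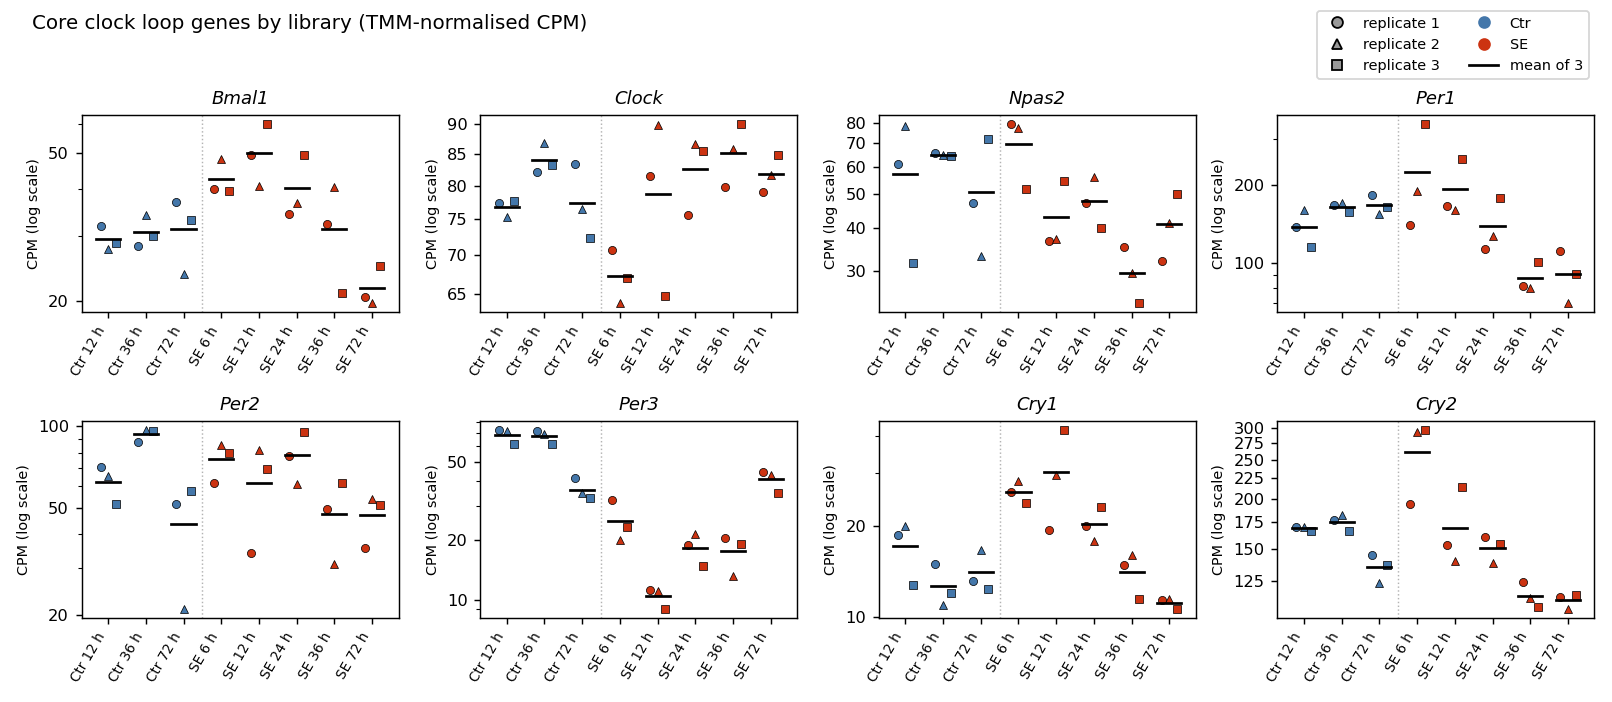
TMM-normalised CPM (log axis) of 8 core clock genes in the 24 libraries, drawn as for the 7 genes above. Per3 is at 9.002 to 11.2 CPM at 12 h after SE against 61.3 to 72.6 in Ctr 12 h, Bmal1 has its highest mean at 12 h after SE (40.8 to 60.0 CPM), and Clock stays between 64.0 and 90.0 CPM throughout.

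Per3, a Period gene with D-boxes among its known control elements, was at 72.6, 71.7 and 61.3 CPM in Ctr 12 h, and 11.2, 11.1 and 9.002 at 12 h after SE. It was at 44.4, 43.1 and 34.6 CPM at 72 h after SE, within reach of the 41.3, 34.6 and 32.6 of Ctr 72 h. Between SE time points, Per3 was called lower from 6 to 12 h and higher from 36 to 72 h. In these steps 2 and 1 of the 19 genes were called, beside 1.36% and 4.16% of all genes.

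Of 8 genes described as D-box or PAR bZIP targets, 3 were called at 12 h, 4 at 36 h and 1 at 72 h between SE and Ctr, beside 25.3%, 21.6% and 19.5% of all genes. Besides Per and Cry genes, these were Por, the electron donor of cytochrome P450 enzymes, which rose by 1.1 (s.e. 0.11) at 12 h, and the deubiquitinase gene Usp2, which fell by 0.72 (s.e. 0.21) at 36 h. The list medians were 0.03, -0.53 and 0.11. Pdxk, the pyridoxal kinase gene, was not called, at -0.23 (s.e. 0.15), -0.35 (s.e. 0.15) and 0.03 (s.e. 0.16) at 12, 36 and 72 h. It had 83.0 to 111 CPM in Ctr 12 and 36 h and 75.2 to 90.4 at 12 h after SE, groups that overlapped. Every SE 36 h library (mean 71.2 CPM) was below every Ctr 36 h library (mean 90.7 CPM). In Ctr 72 h the Pdxk mean was 63.3 CPM. Its Log2FC there against the other controls was -0.56, not called, and -0.42 without Ctr 72 h replicate 2. The Pdxk value at 72 h was thus taken against a control with a lower mean. Of the 7 genes of vitamin B6 metabolism and GABA synthesis, 1, 3 and 2 were called at these times, all lower, against the same 25.3%, 21.6% and 19.5% of all genes. The count at 72 h was 3 without Ctr 72 h replicate 2. Pdxp, which encodes the phosphatase of pyridoxal phosphate, fell by 0.86, 1.35 and 1.00 (s.e. 0.20, 0.21 and 0.21), and Abat, the GABA transaminase gene, fell by 1.18 at 36 h and 0.97 at 72 h (s.e. 0.13 each). Alpl, a phosphatase gene, fell by 1.56 (s.e. 0.42) at 36 h.

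Among 7 genes described as REV-ERB and ROR targets, 2, 2 and 2 were called at 12, 36 and 72 h, where 25.3%, 21.6% and 19.5% of all genes were, and 3 at 72 h without Ctr 72 h replicate 2. Bmal1, Cry1, Npas2 and Bhlhe41 are also on the core list and were described with it. Fabp7, a brain fatty acid binding protein gene known as a REV-ERBα target, rose by 2.01 (s.e. 0.41) at 36 h and 2.54 (s.e. 0.42) at 72 h (3.12 without Ctr 72 h replicate 2). It was also higher in Ctr 72 h than in the other controls, by 1.80 (s.e. 0.35), and by 1.201, not called, without Ctr 72 h replicate 2. Fabp7 is strongly expressed in astroglial cells, and the summed astrocyte markers were 11612 to 13319 CPM at 72 h after SE, the highest of any group, and their part in the value was not tested. Of 8 other rhythmic output genes, 5, 5 and 4 were called (25.3%, 21.6% and 19.5% of all genes), and Cdkn1a, Lonrf3 and Tspan4 were higher at all 3 times. At 72 h, Lonrf3 was at 2.84, and at 1.99 without Ctr 72 h replicate 2. Its Ctr 72 h libraries held 23, 1 and 1 counts, so both values rest on a control near the floor.

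The 7 genes did not follow a single course. Over the 8 group means of log2 CPM, which share the contrast of 3 Ctr with 5 SE groups, Pearson's r was 0.98 for Dbp with Nr1d2, 0.95 for Tef with Hlf and 0.94 for Dbp with Tef. It was 0.75 for Nr1d1 with Nr1d2 and 0.50 for Nr1d2 with Ciart. Nfil3 was negatively related to the other 6, from -0.21 with Ciart to -0.75 with Nr1d2. Among 13727 genes whose mean log2 CPM reached 1, those most like Dbp over the same 8 means were Herc1, Gm42732 and Slc24a2 (r from 0.99 to 1.00). Those most like Tef were Islr2, Abcc8 and Dennd4b (0.99), those most like Hlf were Gm50431, Map4k2 and Rasal1 (0.98), and those most like Nr1d2 were Nicn1, Slc24a2 and Lyrm9 (0.99). The genes nearest to Nfil3 were Gadd45g, Vipr1 and Rasip1 (0.99), while Muc3a, Tubb4a and Sh3gl3 were nearest to Nr1d1 (0.95 to 0.98) and E130307A14Rik, Dgkq and Htr6 to Ciart (0.97 to 0.99). With so many genes and 8 points these values are a description only.

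By position on GRCm39, the 7 genes lie on 6 chromosomes, Hlf (chr11:90227221-90281761) and Nr1d1 (chr11:98658752-98666188) sharing one. Dbp (chr7:45354512-45359627), Tef, Nr1d1 and Ciart share exon sequence with counted genes on the opposite strand. Reads falling there could not be assigned by unstranded counting. Nfil3 shares exon sequence only with opposite-strand genes that are absent from the count table, so how reads there were assigned is not known. The partner of Dbp is Sphk2, a sphingosine kinase gene, which had 26.5 to 34.2 CPM in Ctr and 23.3 to 39.5 in SE libraries, ranges that overlapped while those of Dbp did not.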

How the data were processed

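CA1 mRNA of 24 mouse samples was sequenced. The authors trimmed reads with Trim Galore 0.6.6, aligned them with STAR 2.7.8a to GRCm39, counted them with htseq-count 0.13.5 over GENCODE M26 genes, ignoring the strand, merged lanes, and deposited raw counts. Totals ranged from 2663936 to 30133731 per library, and genes at few counts are measured with less precision.

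Here, counts were TMM-normalised and filtered (filterByExpr over 8 groups) in edgeR 4.0.16 (R 4.3.3). They were fitted with group terms and 1 RUVr factor over all libraries, since the authors also corrected with RUV. That factor was 0.80 in Ctr 72 h replicate 2, -0.39 in replicate 1 and -0.35 in replicate 3. Outside Ctr 72 h it was largest in SE 12 h replicate 1 (0.14), so it mainly describes the spread within Ctr 72 h. The test was edgeR's quasi-likelihood F test, with p values adjusted after Benjamini and Hochberg over 18153 genes. Calls needed an adjusted p up to 0.05 and a Log2FC of 0.66 or more in size, raised to 1 for SE against SE. Intervals are 2 s.e. to either side. CPM values are TMM-normalised without the RUVr factor, so they can differ from fitted values. Symbols, exon lengths and overlaps came from a later GENCODE release than the one the authors counted on, and it matched 18552 of 18647 genes. Alternatives were no RUVr factor, DESeq2 1.42.0, limma-voom (limma 3.58.1), other scalings and filters, fits of only the groups compared, a factor for the label number range or for the replicate number, and each library left out. The fits were tested on simulated data. Named were the members, genes called on a list, 10 clock or target genes whether called or not, and 3 genes most like each member. The members and lists were chosen with earlier results of these data known. Some list genes are not reported here and were left out of the list counts and medians.

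Libraries of equal number in different groups did not deviate together, so the numbers do not pair them. The closest libraries of a group differed by a chi-square of 4.77 per degree of freedom, so none was a duplicate.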

Additional observations from a re-analysis of the deposited data

Results flagged for a closer look

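None of the 7 genes was singled out by a difference of its SE effect between time points, since their SE against Ctr values were not tested. A test of the difference itself called 1, 4 and 1 of 19 core clock genes (edgeR's quasi-likelihood test, Benjamini-Hochberg over all genes). The times were 36 against 12 h, 72 against 12 h and 72 against 36 h. Of all genes, 3.36%, 18.6% and 4.9% were called there, so the list was near the share of all genes. The Per1 effect at 36 h was lower than at 12 h by -1.40 (s.e. 0.37, adjusted p = 0.0382, edgeR). At 72 h against 12 h, the Per1 difference was -1.36 (s.e. 0.37, adjusted p = 0.0127, edgeR), that of Bmal1 -1.28 (s.e. 0.26, adjusted p = 0.00227, edgeR) and that of Cry1 -1.17 (s.e. 0.33, adjusted p = 0.0161, edgeR). In the same contrast, Per3 differed by 2.86 (s.e. 0.27, adjusted p = 1.59e-06, edgeR). The Per3 effect at 72 h exceeded that at 36 h by 2.09 (s.e. 0.27, adjusted p = 0.000357, edgeR). Both Per3 differences include a lower control, since Per3 in Ctr 72 h was at -0.90 against the other controls. Without SE 12 h replicate 3, the SE effects at 12 h of Bmal1 (0.62) and Cry1 (0.53) were not called.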

How the results depend on the processing

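Calls of members between SE time points rested on few libraries and on the spread shared over all groups. With the compared groups only, members called fell to 0 from 6 to 12 h, 0 from 12 to 24 h, 0 from 24 to 36 h and 1 between 12 and 36 h, where fewer samples set the spread. The fitted values themselves hardly moved (Dbp -2.02 and Hlf -1.90 from 6 to 12 h, Dbp 1.51 from 12 to 24 h, Hlf -1.32 from 24 to 36 h). From 24 to 36 h, the count was also 0 without the RUVr factor and with a factor for the label number range. Between 24 and 72 h, it was 0 with the label range and with limma-voom. Between Ctr 72 h and the other controls, it was 0 without the RUVr factor, with at least 10 counts in every library, with the label range, with compared groups only and with limma-voom, and the Log2FC of Ciart ran from -1.87 to 0.21 when leaving out 1 library, reversed without Ctr 72 h replicate 2. The threshold of 0.66, added after the data were seen, gave 5, 2 and 2 members from 6 to 12 h, 24 to 36 h and 36 to 72 h. Leaving out 1 library gave 1 to 3 members from 12 to 24 h, 0 to 2 from 24 to 36 h, 1 to 3 between 12 and 36 h, 0 to 2 between 24 and 72 h, and 0 to 1 in the controls.

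For core clock genes at 12 h, 2 to 5 were called when leaving out 1 library. At 72 h, 3 were called with at least 10 counts in every library, 2 with the label range and 2 with compared groups only, and 2 to 5 when leaving out 1 library. In Ctr 72 h against the other controls, 1 was called without the RUVr factor, 0 with the label range, 0 with compared groups only, 1 with limma-voom, and 1 to 4 when leaving out 1 library. Fitted values of SE against Ctr that moved beyond the spread were those of Nfil3 without replicate 3 of SE 12 h (2.15), SE 6 h (2.46) and SE 24 h (1.33), and with the label range Nfil3 at 24 h (1.22) and 72 h (-1.14), Hlf at 72 h (-1.72) and Nr1d2 at 24 h (-0.66) and 72 h (-0.34), besides Tef at 36 h with library size only (-1.52). Ciart at 72 h (-0.36, s.e. 0.33) moved as well and ran from -1.70 to 0.41 when leaving out 1 library. Both ends lie outside 2 s.e. to either side of the full fit (-1.02 to 0.30). The causes were not tested. With the replicate block, members called remained 2, 3, 1 and 1 in number over consecutive SE steps. Same-numbered libraries correlated between -0.35 and 0.19 over 12 pairs of groups, and none of these pairs had every correlation above 0.1, so the numbers were taken as names only. Low depth limits Ctr 72 h most, and the clock hour of induction is not given in the sources used here, so time of day and time after SE cannot be told apart.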
